A study of Rattus norvegicus with 6 samples.

Results

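The 34 genes described here are the transcription factor NRF2 (gene Nfe2l2), its inhibitor KEAP1, a set of NRF2 target genes, and antioxidant enzymes. These enzymes make glutathione, carry electrons to thioredoxin, remove superoxide and peroxides, or belong to pathways that supply the NADPH that these reactions consume. The 34 genes were chosen by name, with earlier results of these data known, and each has a row among the 17525 genes of the table. The cells were primary ovarian granulosa cells of SD rats, which were 21 days old when given 60 IU of PMSG, a serum gonadotropin that drives follicle growth, with the ovaries taken 48 h later. Whole ovaries were cut up and digested, and the passage through a sieve was followed by culture in medium with serum, insulin, transferrin and selenite, so the cells were enriched by the procedure and not sorted. Selenium is the element that several of the peroxidases and reductases below carry in their active site. The titles name an ATR group and a Control group of 3 libraries each, and the values below come from the 3 ATR libraries, ATR 1, ATR 2 and ATR 3. The study's title is about atrazine, a herbicide, while ATR itself is not spelled out, and the sources used here give neither dose nor duration. The Control libraries were not analysed here, so no value below is an effect of exposure.

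As background, NRF2 is held in the cytoplasm by KEAP1, a thiol-rich adaptor that delivers it to a ubiquitin ligase. When electrophiles or oxidants modify KEAP1, newly made NRF2 escapes degradation, enters the nucleus, pairs with a small MAF protein and binds antioxidant response elements in its target genes. Superoxide dismutases turn superoxide into hydrogen peroxide, which catalase then breaks down and the glutathione peroxidases and the peroxiredoxins reduce to water. Glutathione reductase and the thioredoxin reductases restore the thiol donors with electrons from NADPH. In the ovary, granulosa cells of growing follicles make steroids, and their mitochondria are a source of oxidants.

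The promoters of 8 members show where an antioxidant response element core could lie. The core was searched as TGACNNNGC on both strands in RefSeq windows from 250 bases before to 50 bases after each gene's start (assembly GRCr8). Windows were present for 29 of the 34 genes, and 8 of these (27.6%) held the core, against 13.1% of 27457 genes with a window and 14.9% of the 13242 that also have a row in the table. The windows below are read 5′ to 3′ on the strand that reads TGAC, with the core in capitals and up to 10 bases on each side, and are shown because they are all the matches found among the members.
Gclm: tggaagacaaTGACTAAGCagaaaccgca
Me1: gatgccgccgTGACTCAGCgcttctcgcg
Nfe2l2: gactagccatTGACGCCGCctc
Prdx1: cggcggggtaTGACTCAGCgctttccctg
Prdx4: cacgtttccaTGACCAAGCgagcacgaaa
Prdx5: cacccgcagaTGACTCTGCccacaggagg
Sod2: agctaggcgcTGACCCTGCcggcagcgcc
Txnrd1: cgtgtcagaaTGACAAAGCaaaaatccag

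The Gclm match lies at chr2:213031953-213031981 on the minus strand, 172 bases before the start. That of Me1 is at chr8:96540393-96540421, minus strand, 167 bases before the start, and that of Prdx1 at chr5:135383761-135383789, minus strand, 135 bases before. Me1 and Prdx1 share the same 9 letters, TGACTCAGC, and these 2 matches also contain the AP-1 motif (searched as TGACTCA or TGAGTCA), the letters bound by FOS and JUN proteins. That motif was found in the windows of 3 of the 29 members (10.3%), against 5.04% of all genes with a window. The Txnrd1 match lies at chr7:22755964-22755992 on the plus strand, 78 bases before the start, and that of Sod2 at chr1:50050185-50050213, plus strand, 35 bases before. The Prdx5 match (chr1:213532010-213532038, plus strand) spans the start, as only 1 base of its core lies before it. The matches of Nfe2l2 (chr3:81028950-81028971, minus strand) and Prdx4 (chrX:43878742-43878770, minus strand) fall after the start. The 8 members with a core had a median level of 244 TPM and the 21 without one a median of 220.5 TPM, and this difference was not tested. A match is a run of letters and not a shown binding site, and the absence of a match says nothing of elements farther from the start.

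The libraries held between 18677212 and 19170552 reads assigned to genes, of which the 34 genes took 0.584% in ATR 1, 0.651% in ATR 2 and 0.617% in ATR 3. Of 14 granulosa markers, 12 reached 1 TPM (a level given as a share of all transcripts, scaled for transcript length and library size), with summed levels of 2868 to 3273 TPM. The receptor Fshr, used by the authors to identify the cells, was measured at 4.77 to 7.38 TPM, whereas Amh had 0 to 2 reads and Cyp19a1, the aromatase, 1 to 2.33 estimated reads per library. Of the 14, 8 reached 10 TPM, among them Inha, Inhba and Gata4 with means of 443, 282 and 189 TPM. Gja1, at 1821 to 2036 TPM, made up most of the sum. Smooth muscle and pericyte markers (8 of 8 at 1 TPM or more) summed to 16398.5 to 17725 TPM, stromal fibroblast markers (9 of 9) to 746 to 783 TPM, and surface epithelium markers (8 of 12) to 2267 to 2388 TPM. Tagln and Acta2, with means of 10890.5 and 5496 TPM, made up most of the smooth muscle sum. The next highest of that list was Mcam at 204 TPM, and the lowest was Notch3 at 1.34 TPM. Upk3b, with a mean of 1403 TPM, made up most of the surface epithelium sum. Theca markers (3 of 7) summed to 32.8 to 46.5 TPM, leukocyte markers (9 of 11, with Ptprc under 1 TPM) to 106 to 132 TPM, and endothelial markers (2 of 6) to 13.9 to 15.9 TPM. The granulosa label therefore has some of its defining markers at or near 0 and others above 100 TPM. The levels below are those of a bulk culture in which fewer cells of a type and less RNA per cell cannot be told apart. Nothing in the labels ties the 3 libraries to different rats or dishes, and p-values below then measure only the spread between these libraries, which may be technical.

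The set was well expressed. All 34 genes exceeded 1 TPM, 33 exceeded 10 TPM and 23 exceeded 100 TPM, with a median level of 223 TPM against 10.1 TPM over all rows. Together they made up 1.06%, 1.16% and 1.11% of all TPM in ATR 1, ATR 2 and ATR 3 (1.11% ± 0.0481, SD, n = 3). Ranked by mean TPM among all genes, the highest was number 74 (Txn1) and the lowest number 11123 (Slc7a11), and 20 of the 34 lay in the top 1000. The levels were often too close to rank: of 33 neighbouring pairs in the order, 16 had overlapping ranges over the libraries and 17 were separate.

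**Figure D1:**
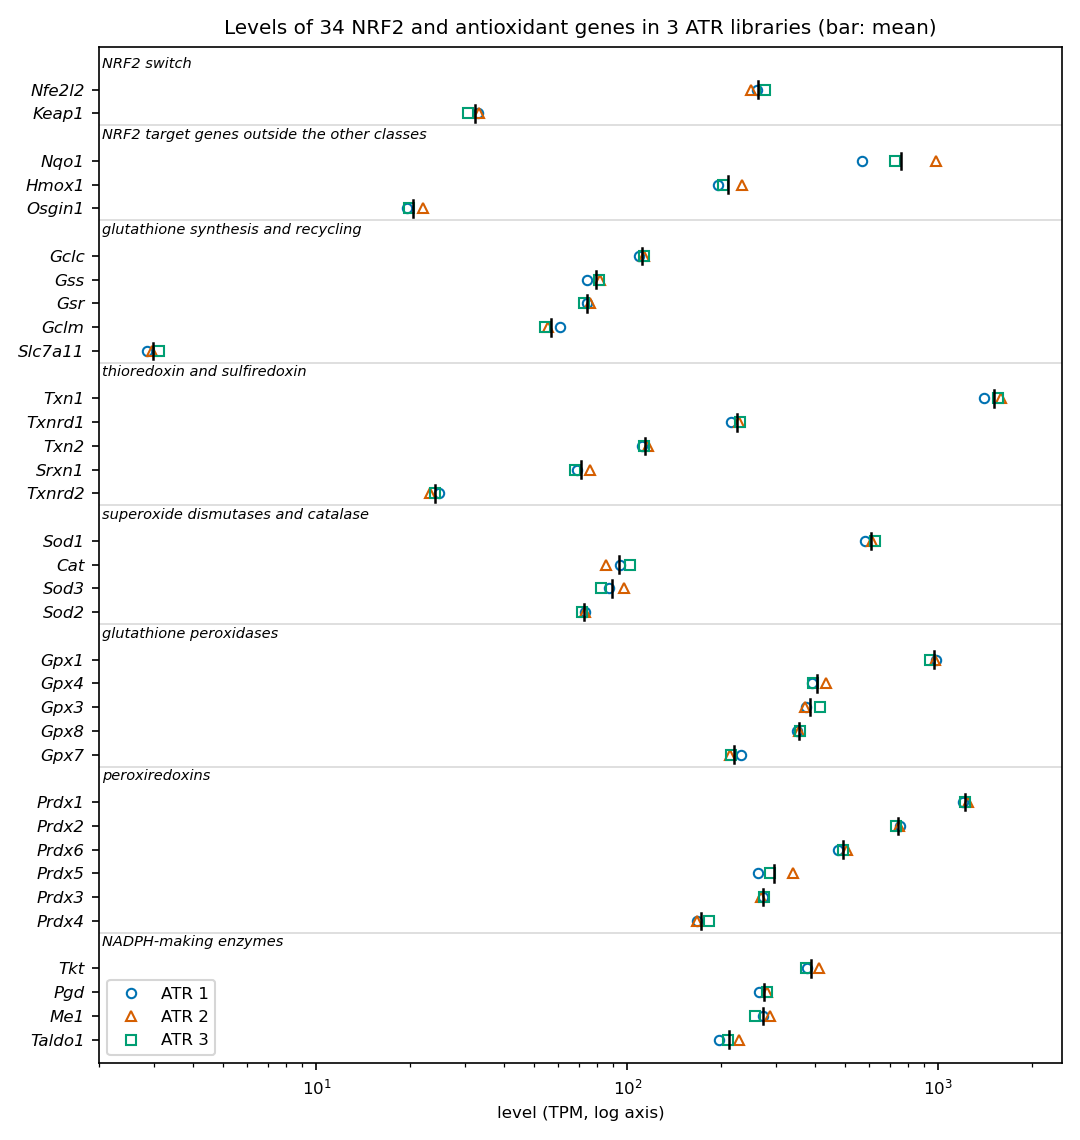
TPM of the 34 genes on a log axis, grouped by role, with a symbol for each of the 3 ATR libraries and a bar at their mean. Txn1 and Prdx1 lie above 1000 TPM in every library, Slc7a11 lies near 3 TPM, and the points of Nqo1 are the most widely spaced.

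The NRF2 switch was present with far more message for the factor than for its inhibitor. With values always in the order ATR 1, ATR 2, ATR 3, Nfe2l2 was measured at 262, 250.2 and 276 TPM (263 ± 13.1, SD, n = 3). Keap1 was measured at 33.1, 33.3 and 30.6 TPM (32.4 ± 1.49). The ratio of their TPM levels was 7.90, 7.51 and 9.02. These are message levels, and NRF2 is controlled mainly through the stability of the protein, which was not measured.

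Of the 3 target genes outside the other classes, Nqo1, a quinone reductase that is among the classic NRF2 targets, was the highest at 759.7 ± 211 TPM. Its levels were 567, 985 and 726 TPM, so ATR 1 was the lowest and ATR 2 the highest, with ATR 3 between them. Hmox1, the heme oxygenase that opens the heme ring and releases iron, had 196, 234 and 203 TPM (211 ± 20.3), with ATR 2 above the other 2 libraries. Osgin1, an oxidative stress-induced growth inhibitor, stood at 19.5, 22.0 and 19.8 TPM (20.4 ± 1.36). All 3 genes were lowest in ATR 1 and highest in ATR 2 by scaled counts, but Nqo1 moved further than Hmox1: the TPM ratio of Nqo1 to Hmox1 was 2.89, 4.21 and 3.58. For Osgin1 the differences between libraries did not pass the chi-square test described below (adjusted p 0.245).

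Glutathione synthesis and recycling was the class with the lowest median level, 74.2 TPM. Gclc, the catalytic subunit of the rate-limiting ligase, had 109, 113 and 113 TPM (112 ± 2.29), and Gclm, its modifier subunit, 60.9, 55.7 and 54.3 TPM (57.0 ± 3.52). Their TPM ratio was 1.79, 2.03 and 2.09, with Gclc above Gclm in every library. Gss, which adds glycine to complete glutathione, stood at 79.0 ± 4.26 TPM, and Gsr, the reductase that restores reduced glutathione, at 74.2 ± 1.60 TPM, and the ranges of these 2 genes overlapped. The exception in level was Slc7a11, the transport subunit of the cystine-glutamate exchanger that brings in cystine for glutathione, at 2.86, 2.95 and 3.12 TPM (2.98 ± 0.132). Its reads, 162, 209 and 219, were the fewest among the members. The 2 deposited values for this gene do not run in parallel: its ratio of count to TPM had a coefficient of variation of 11.4% between libraries, against at most 0.227% for the other 33 genes. The ratio of ATR 2 to ATR 1 was accordingly 1.31 (95% interval 1.06 to 1.62) from reads and 1.03 from TPM.

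The thioredoxin system held the most abundant member. Txn1, the cytosolic thioredoxin, was measured at 1406, 1589 and 1553 TPM (1516 ± 96.9), with ATR 1 below the other libraries. Its mitochondrial counterpart Txn2 had 112, 116 and 113 TPM (114 ± 2.51), so that the TPM ratio of Txn1 to Txn2 was 12.6, 13.6 and 13.7. The reductases followed the same order, with Txnrd1, the cytosolic form, at 216, 228 and 229.8 TPM (225 ± 7.66) and Txnrd2, the mitochondrial form, at 24.9, 23.2 and 24.0 TPM (24.0 ± 0.840). The ratio of the reductases was 8.69, 9.86 and 9.59 on the TPM scale. Srxn1, sulfiredoxin, which repairs over-oxidised peroxiredoxins, was at 70.8 ± 4.21 TPM.

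Among the enzymes that handle superoxide and its product, Sod1 (cytosolic, copper and zinc) predominated at 582, 611 and 628 TPM (607 ± 23.5). Sod2 (mitochondrial, manganese) was at 73.1, 73.3 and 71.5 TPM (72.6 ± 0.973), giving TPM ratios of Sod1 to Sod2 of 7.96, 8.34 and 8.78. Sod3, the secreted dismutase, was at 87.5, 97.7 and 82.1 TPM (89.1 ± 7.94) and lay above Sod2 in each library. Cat, the peroxisomal catalase, was at 94.8, 85.3 and 102 TPM (94.0 ± 8.28). Cat was the member among these 4 with its lowest value in ATR 2, and its range overlapped that of Sod3.

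All 5 glutathione peroxidases exceeded 100 TPM. Gpx1, the abundant cytosolic selenoenzyme, had 982, 978 and 943 TPM (968 ± 21.2), and Gpx4, the selenoenzyme that reduces lipid hydroperoxides and restrains ferroptosis, 391, 435 and 395 TPM (407 ± 24.2). Gpx3, the secreted plasma form, was at 376, 372 and 416 TPM (388 ± 24.5). Gpx7 and Gpx8, which act in the endoplasmic reticulum and use cysteine in place of selenocysteine, were at 220.5 ± 9.74 and 356 ± 4.06 TPM. Summed over the class, the peroxidases held 2333, 2356 and 2330 TPM, while Gpx4 was highest in ATR 2 and Gpx3 in ATR 3. The 5 selenoprotein members, a grouping made after the values were seen (Gpx1, Gpx3, Gpx4, Txnrd1 and Txnrd2), summed to 2012 ± 23.4 TPM.

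The peroxiredoxins were the most abundant class, with sums of 3132, 3281 and 3189 TPM. Prdx1 led at 1202, 1246 and 1218 TPM (1222 ± 22.4), followed by the other cytosolic 2-cysteine form Prdx2 at 752, 747 and 730.1 TPM (743 ± 11.6), and the ratio of Prdx1 to Prdx2 was 1.60, 1.67 and 1.67. Prdx6, the 1-cysteine form with phospholipase activity, was at 493 ± 18.2 TPM, Prdx3, the mitochondrial form, at 272 ± 3.62 TPM and Prdx4, the form of the endoplasmic reticulum, at 173 ± 8.51 TPM. Prdx5, which is found in mitochondria, peroxisomes and cytosol, had 263, 341 and 287 TPM (297 ± 39.9), with ATR 2 above the others and ATR 1 the lowest. The Prdx5 gene overlaps Trmt112 in the RefSeq annotation, and no strand-marking step is described. Trmt112 was measured at 99.1, 99.0 and 101 TPM. Whether shared reads had a part in the Prdx5 levels was not tested. Overlaps with another measured gene also touch Gss (Myh7b, 0.303 TPM), Txnrd1 (Eid3, 0.597 TPM) and Gpx7 (Tut4, 24.9 TPM), whose reads could be shared between the genes.

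The class labelled NADPH-making enzymes had means from 212 to 389 TPM. Of its 4 genes, Pgd and Me1 produce NADPH themselves, while Tkt and Taldo1 do not. Tkt, transketolase, was at 379, 413 and 376 TPM (389 ± 20.0), Pgd, the phosphogluconate dehydrogenase of the oxidative pentose phosphate pathway, at 264, 282 and 281 TPM (276 ± 10.2), Me1, cytosolic malic enzyme, at 274, 288 and 257 TPM (273 ± 15.8), and Taldo1, transaldolase, at 197, 229 and 211 TPM (212 ± 16.1). Me1 and Pgd could not be ranked, since their TPM ratio was 1.04, 1.02 and 0.913. By TPM all 4 genes were highest in ATR 2, and the class summed to 1114, 1212 and 1126 TPM. By scaled counts Tkt, Taldo1 and Me1 were highest in ATR 2 and Pgd in ATR 3.

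Most members differed little between libraries. The coefficient of variation of TPM ran from 1.14% (Gpx8) to 27.8% (Nqo1), with a median of 4.77% against 6.49% over all genes tested, and it was under 5% for 19 members and under 10% for 32. The members were deeply read, with at least 1000 reads in 33 of 34, and at that depth small differences can exceed counting noise. The 6.49% includes genes with as few as 30 reads, so these medians are not matched for depth. A chi-square test set each gene's 3 counts against TMM-scaled library sizes (genes with at least 30 reads, Benjamini-Hochberg adjusted p under 0.05 over 13309 genes). It was passed by 21 of 34 members, against 23.2% of all genes tested. Among genes with at least 1000 reads it was passed by 20 of 33 members, against 29.7%. These shares are not fully matched for depth either: 14 members had at least 10000 reads, against 1132 of those 7621 genes. This test compares these libraries and not conditions, and it treats duplicated reads as independent. Of the 21, 16 had a ratio of highest to lowest scaled count (CPM, a count scaled to library size) of 1.06 to 1.19, and 5 reached 1.2 (Hmox1, Nqo1, Slc7a11, Cat and Prdx5), against 11.1% of all genes. The 13 that did not pass had ratios of 1.02 to 1.15. The number passing was 11 without ATR 1, 15 without ATR 2 and 17 without ATR 3, where the share of all genes passing was 11.9%, 14.6% and 17.3%. When the spread common to all genes (a biological coefficient of variation of 8.24%, from edgeR) was allowed for in place of counting noise alone, 1 of 34 passed, Nqo1 (adjusted p 0.000347), against 3.25% of all genes.

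**Figure D2:**
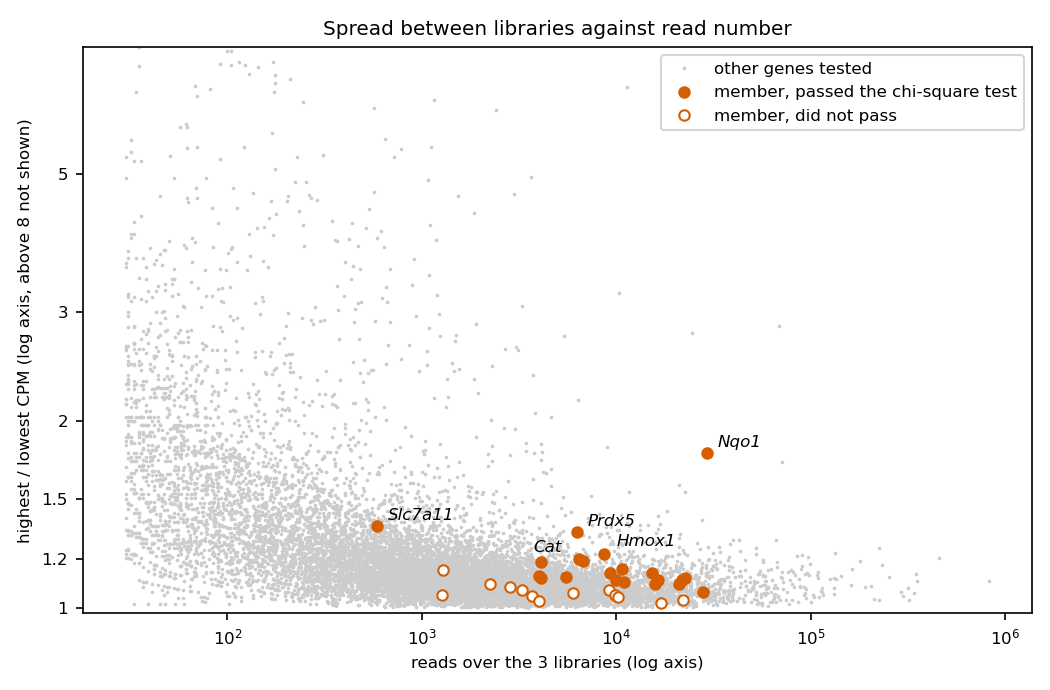
Ratio of the highest to the lowest CPM over the 3 ATR libraries against the reads of each gene, both on log axes, with the 34 members in colour and 107 genes above a ratio of 8 or without reads in a library not drawn. Nqo1, at a ratio of 1.78, lies above the other members, whose ratios do not exceed 1.35.

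The order of the libraries was shared by many members. By CPM, 24 of 34 were lowest in ATR 1, against 35.1% of all genes, and 20 of 34 were highest in ATR 2, against 34.1%. With TPM in place of CPM, 17 were lowest in ATR 1 (26.9% of all genes) and 19 highest in ATR 2 (30.2%). The shift was small: the median deviation of the members from their own mean, on the log2(CPM + 0.5) scale, came to -0.06, 0.04 and 0.01 for ATR 1, ATR 2 and ATR 3, while that of all genes was 0.00 in each. With TPM in place of CPM the members' median in ATR 1 was -0.04. Members that passed the test were not uniform either, since 11 of the 21 were lowest in ATR 1 and highest in ATR 2 (against 21.9% of all genes that passed), while Cat and Nfe2l2 were lowest in ATR 2 and Me1 and Sod3 were lowest in ATR 3.

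**Figure D3:**
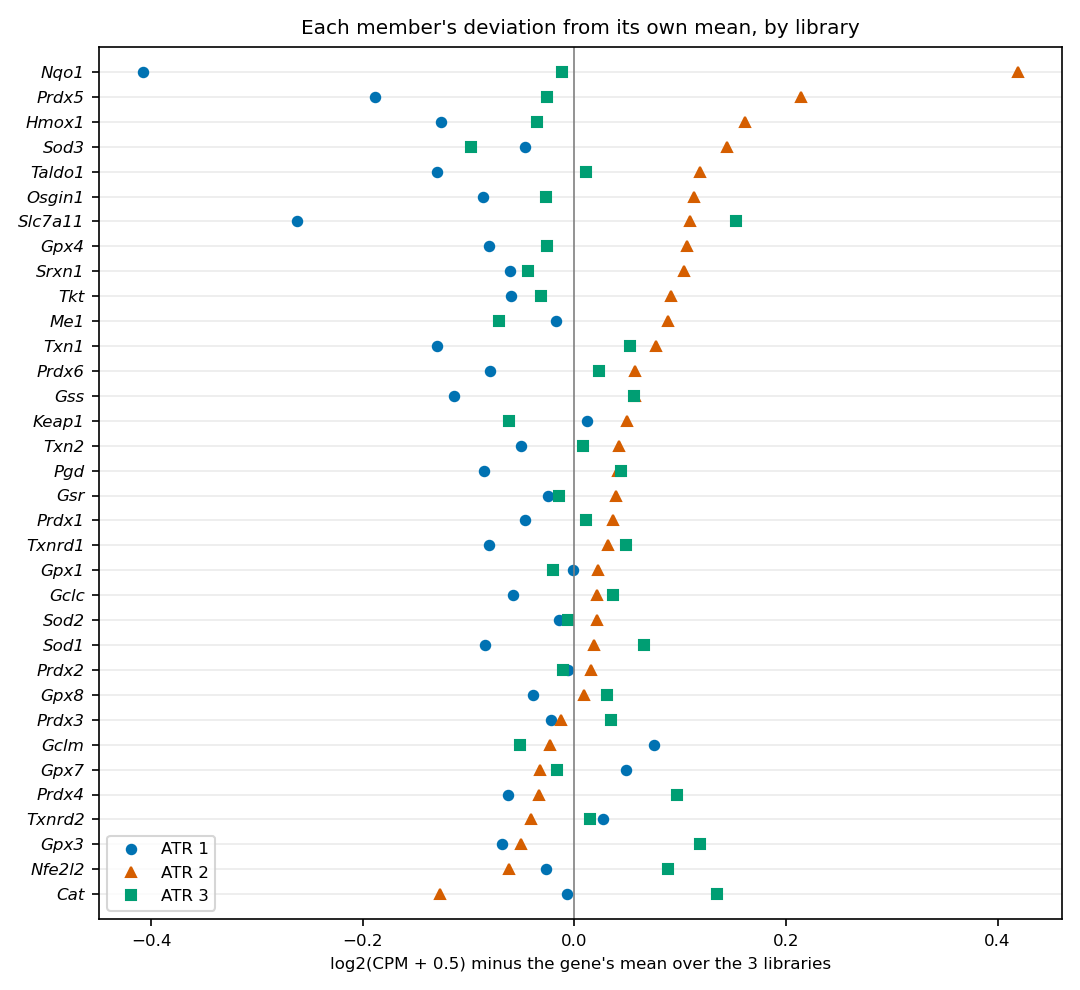
Deviation of each member from its mean over the 3 ATR libraries, on the log2(CPM + 0.5) scale, with 1 row per gene sorted by its deviation in ATR 2, a symbol for each library and a vertical line at 0. Nqo1, in the top row, lies farthest from the line in ATR 1 and ATR 2, and Cat is the lowest of the genes in ATR 2.

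Nqo1 had the largest ratio of highest to lowest CPM among the 34 members. Its reads in ATR 2 were 1.78 times those of ATR 1 (95% interval 1.72 to 1.83, counting error only), those of ATR 3 were 1.32 times those of ATR 1, and those of ATR 2 were 1.35 times those of ATR 3. Among the 1132 genes with at least 10000 reads in all, 9 had a ratio of highest to lowest CPM of 1.5 or more, and Nqo1 was 1 of these and the only one among the 14 members in that range. Prdx5 had a ratio of ATR 2 to ATR 1 of 1.32 (1.25 to 1.41, adjusted p 1.23e-17) and Hmox1 one of 1.22 (1.16 to 1.29, adjusted p 7.78e-13). Cat was opposite in order, with ATR 2 at 0.833 times ATR 3 (0.784 to 0.885, adjusted p 2.44e-07). The adjusted p values of Prdx5, Hmox1, Cat and Slc7a11 (0.0347) are those of the chi-square test. Nqo1, Prdx5 and Cat passed it without any 1 of the libraries, while Hmox1 did not pass without ATR 2, and Slc7a11 did not pass without ATR 1 or without ATR 3.

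Of the 9 stromal markers, 3 were lowest in ATR 1, highest in ATR 2 and between in ATR 3, the order of Nqo1, and are named for that order after their values were seen. Thy1, a surface glycoprotein of fibroblasts, was at 23.2, 104 and 82.7 TPM, Prrx1, a mesenchymal transcription factor, at 12.0, 47.0 and 29.2 TPM, and Pdgfra, a growth factor receptor of fibroblasts, at 1.36, 5.27 and 3.67 TPM. The other 6 did not share that order: Dcn, Ogn and Col14a1 (333, 267 and 305 TPM) were highest in ATR 1, Lum and Gsn were highest in ATR 3, and Pi16 was lowest in ATR 3. The sum over the whole stromal list was 746, 778 and 783 TPM, highest in ATR 3, with all 9 markers at 1 TPM or more. Granulosa markers summed to 3273, 2999.6 and 2868 TPM, highest in ATR 1. The order of Nqo1 was not limited to stromal genes, since by CPM 18.9% of all genes tested had it. In other marker lists, Fst (granulosa), Krt7 (surface epithelium) and Des (smooth muscle) had it too. Others in those lists did not, such as Inha, Upk3b and Acta2, which were highest in ATR 1. Whether cell makeup had a part in the Nqo1 levels was not tested.

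**Figure D4:**
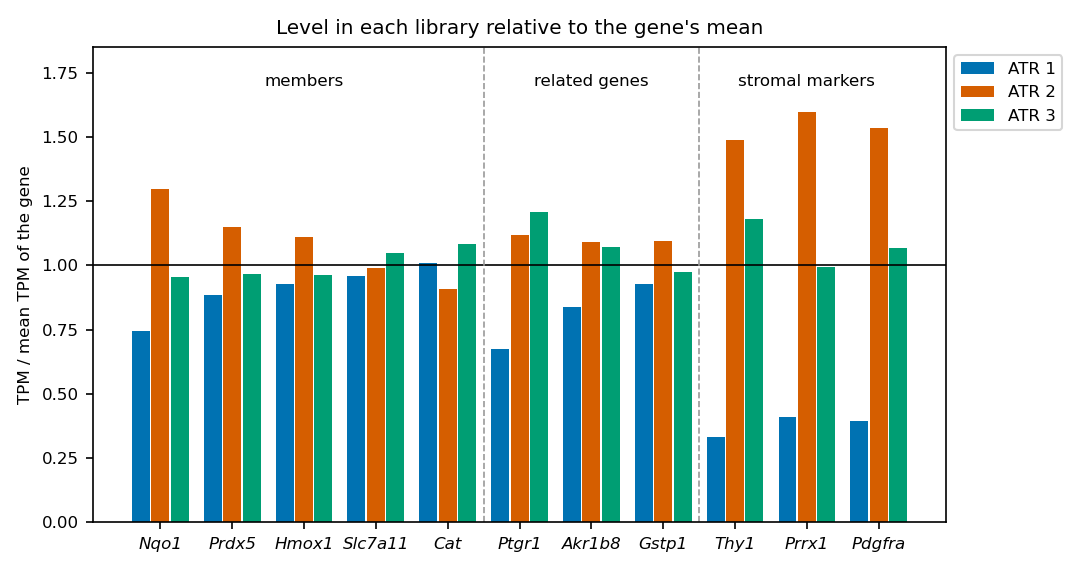
TPM in each ATR library divided by the gene's mean, for the 5 members with a CPM ratio of at least 1.2, 3 related NRF2 targets and the 3 of 9 stromal markers that share the order of Nqo1, with the line at 1 marking the mean. ATR 1 is the lowest bar for 10 of the 11 genes drawn, with Cat the exception. This count holds for the drawn genes only, since the stromal markers were picked for that order. The 3 NRF2 targets are from a list of 19, of which 12 were lowest in ATR 1 by CPM.

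Members of the mitochondria and the cytosol were compared in a grouping made after the values were seen. Txn2, Txnrd2, Sod2 and Prdx3, which work in mitochondria, summed to 482 ± 1.52 TPM. Their cytosolic counterparts Txn1, Txnrd1, Sod1 and Prdx1 summed to 3570 ± 144 TPM. Prdx2 and Gpx1, which are also cytosolic, are not in this sum.

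Genes beyond the 34 were taken from lists of the wider pathway, and their counts of genes that varied, meaning that they passed the chi-square test, stand beside 23.2% of all genes tested. Of 13 regulators of NRF2, 11 reached 1 TPM, led by Sqstm1 (p62, which sequesters KEAP1) at 512 ± 12.4 TPM and Nfe2l1 (a related factor) at 408 ± 22.9 TPM, and 3 of 12 tested varied between libraries. Each of 19 further NRF2 target genes reached 1 TPM, the median being 133 TPM, and 11 of 19 varied (against 23.2% of all genes, a share not matched for depth). By CPM 12 of the 19 were lowest in ATR 1 (35.1% of all genes) and 14 highest in ATR 2 (34.1%). Ftl1 and Fth1, the ferritin chains that store iron, led this list at 3958 ± 223 and 2666 ± 206 TPM. Ptgr1, a reductase of reactive aldehydes and prostaglandins, was the list's member with a ratio of at least 1.5, at 92.9, 154 and 166 TPM, a ratio of 1.83, with ATR 1 low and the other 2 libraries close together.

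The supply of substrates was uneven. Of 16 genes for glutathione and cysteine supply, 14 reached 1 TPM, and the list was led by Slc3a2, the heavy chain that pairs with the product of Slc7a11, at 156 ± 6.43 TPM, and Slc25a39, a mitochondrial glutathione carrier, at 127 ± 7.21 TPM. In this list 4 of 14 tested varied, including Slc1a5, a glutamine transporter, at 4.20, 7.65 and 10.2 TPM, and Ggt5, a glutamyl transferase, at 2.15, 5.44 and 2.36 TPM. All 13 genes of the pentose phosphate and NADPH list reached 1 TPM, led by Me2, mitochondrial malic enzyme, at 232 ± 6.38 TPM, and 3 of 13 varied. The 9 genes of selenocysteine insertion all reached 1 TPM but none reached 100 TPM. Trnau1ap, a factor for the selenocysteine transfer RNA, led them at 85.6 ± 0.556 TPM, followed by Sephs2, which makes the selenium donor, at 27.4 ± 2.22 TPM.

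Of 22 oxidant-producing genes, 10 were below 1 TPM. The list was led by Maoa, a mitochondrial amine oxidase, at 604 ± 18.5 TPM and Cyba, a subunit of NADPH oxidases, at 174 ± 6.34 TPM, and the list's median was 1.46 TPM. Of its genes 3 of 14 tested varied, among them Duox2, with 6.52, 24.9 and 10.9 estimated reads, fewer than 1 TPM in every library. Of 29 other redox enzymes 28 had a row and 27 reached 1 TPM, with Sepw1, a small selenoprotein also called Selenow, at 512 ± 28.5 TPM and Glrx3, a glutaredoxin, at 318 ± 4.25 TPM. In that list 5 of 27 varied, including Gpx2, the gastrointestinal peroxidase, with 17, 34 and 9 reads. Counting each related gene once, 28 of 104 tested varied, against 23.2% of all genes, and the median level of the 116 found was 30.7 TPM.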

How the data were processed

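Poly(A) RNA libraries were random-primed and read as pairs of 150 bases, per the labels' protocols. The authors deposited 1 table with TPM and an estimated count per gene and library, per the file headers; 19.0% to 19.2% of the counts are not whole (tolerance 0.001). StringTie 2.1.5, HISAT2 2.2.1 and fastp 0.20.1 are listed, per the submitters' processing notes, beside the builds Rnor_6.0 and GRCm38, without roles. The sources used here give no strand handling and no rule for shared reads. Columns were mapped for the 3 ATR libraries, and the planned ATR against Control fit was not run.

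Levels are the deposited TPM. Expected counts were rounded and scaled with TMM (edgeR 4.0.16, R 4.3.3), and spread was tested by a chi-square test per gene over genes with at least 30 reads, with Benjamini-Hochberg adjustment at 0.05. The test was run on simulated counts first. Intervals are exact (Clopper-Pearson) 95% and cover counting error only. DESeq2 1.42.0 size factors were an alternative. Promoter windows and gene overlaps come from RefSeq (GRCr8), used for names and for the printed windows. Python 3.11.15, numpy 2.4.6, pandas 2.3.3, scipy 1.17.1 and matplotlib 3.10.9 were used. All members are described with mean and SD. Libraries are given singly for members with a ratio of at least 1.2 that passed, for family comparisons, and for others where the classes are described. Of each related list the 2 genes of highest TPM and those passing with a ratio of at least 1.5 are named, except for an item that is not reported here. The members and lists were chosen with earlier results of these data known.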

Additional observations from a re-analysis of the deposited data

How the results depend on the processing

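No paired analysis was possible because the replicate numbers are shared only with the Control libraries, which were not analysed here. The median member level was 223 TPM, and the geometric mean over the members was 178 TPM. The number of members passing the chi-square test was 21, fell to 1 with the common dispersion in place of counting noise, and ran from 11 to 17 when 1 library was left out, lowest without ATR 1; fewer samples enter each of those tests. It was 20 with library totals, 21 with DESeq2 size factors and 19 with whole counts only. The numbers at 100 TPM or more, lowest in ATR 1 and highest in ATR 2 stayed within 1.5 times under the scalings and thresholds tried. The median deviations kept their direction under the scalings and pseudocount tried, but that of ATR 1 went from -0.06 to -0.04 with TPM in place of CPM. Depth limits Slc7a11 most, with 162 to 219 reads.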
